A study of Mus musculus with 17 samples.

Results

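The effect of Hif1a loss on the kidney that expresses the PRCC-TFE3 fusion was examined in 4 PRCC-TFE3 KI/Hif1a KO kidneys (KI/Hif1a KO) set against 3 PRCC-TFE3 KI kidneys (KI). These 7 libraries, chosen by their sample titles alone, are part of 17 in the series. Every mouse carried lsl-PRCC-TFE3 KI, a fusion allele at Rosa26 that stays silent until Cre removes a stop sequence. In KI and KI/Hif1a KO mice the KSP-Cre transgene, driven by the Cadherin 16 promoter of kidney epithelium, was present, and KI/Hif1a KO mice also carried HIF1af/f, so that fusion expression and loss of Hif1a take place in the same epithelial cells. The other groups were 3 KI/Hif2a KO kidneys (HIF2af/f with Cre), 3 kidneys of the double knockout (KI/DKO, both flox alleles with Cre) and 4 Cre(-) kidneys without active fusion, of which 2 carried HIF1af/f and 2 carried no flox allele. The labels give no age and do not say whether animals were pooled. RNA came from kidney tissue, so other cell types are included, and in such bulk RNA fewer cells of a type and less RNA per cell cannot be told apart.

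HIF1α is the oxygen-labile subunit of a transcription factor. With oxygen it is hydroxylated and degraded through VHL, and without oxygen it pairs with ARNT, binds RCGTG cores in DNA and turns on genes for glycolysis, lactate export, collagen modification and mitochondrial turnover. PRCC-TFE3 joins PRCC to TFE3, a transcription factor that activates lysosomal and autophagy genes, and is found in a form of renal cell carcinoma. Proximal tubule cells normally burn fatty acids and make glucose, and carry few glycolytic enzymes.

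Library totals were 16504419 to 18173319 counts in KI and 16710464 to 24668827 in KI/Hif1a KO. Levels are given as CPM, the counts of a gene scaled to the same library total after TMM scaling. Changes are log2 fold changes with their standard error (SE), and a gene was called at an adjusted p under 0.05 in the quasi-likelihood test of edgeR, adjusted over 17011 genes by the Benjamini-Hochberg method. Every adjusted p below is from that test. Kidney markers were present in all 7 libraries (Umod at 656.7 to 3434 CPM and Cdh16, the gene whose promoter drives Cre, at 576.7 to 922.4 CPM). Mitochondrially encoded genes held 8.68% to 8.85% of counts in KI and 10.28% to 12.36% in KI/Hif1a KO, without overlap. One KI library, KI 2, held 2187 CPM of a 10-gene adipocyte list against 113.4 to 463.4 CPM in the other 6 libraries, and KI 3 held 416.1 CPM of 5 erythroid genes against 20.98 to 103.1 CPM. Library numbers ran from 1 to 4 in KI/Hif1a KO and were 17, 20 and 21 in KI, so library order and genotype cannot be told apart.

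The Hif1a transcript itself was nearly as high in the knockout as in KI. Hif1a was at 227.9, 231.6 and 184.0 CPM in KI and at 162.6, 192.8, 189.4 and 198.4 CPM in KI/Hif1a KO, with overlapping groups. The log2 difference was -0.21 (SE 0.13, adjusted p = 0.372). Counts summed over a gene do not separate transcripts that lack a floxed exon, and cells without Cre keep the intact gene, so this value checks neither the deletion nor the labels. The main protein-coding transcript, Hif1a-201, was estimated at 60.2, 67.0 and 47.6 TPM (transcripts scaled for length and library total) in KI and at 38.0, 37.3, 44.8 and 47.0 TPM in KI/Hif1a KO. Hif1a-202, also protein-coding, leaned the other way with overlap, at 17.8, 11.4 and 9.12 TPM in KI and 12.4, 27.6, 16.2 and 18.9 TPM in KI/Hif1a KO. Epas1, which encodes HIF2α, was at 173.2 to 191.7 CPM in KI and 163.3 to 179.4 CPM in KI/Hif1a KO (log2 -0.10, SE 0.09, adjusted p = 0.566). Cdh16 rose by 0.37 (SE 0.09, adjusted p = 0.0297), from 704.4, 576.7 and 624.9 CPM to 922.4, 749.4, 755.6 and 848.3 CPM.

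In KI/Hif1a KO kidney 438 genes were higher and 487 lower than in KI, which is 2.57% and 2.86% of the genes tested. The genes that rose changed more than those that fell. Their median fold was 1.75 and 162 of them passed 2-fold, against a median fold of 1.47 and 69 past 2-fold among the genes that fell. Of the higher genes 63 had a mean of at least 100 CPM in KI or KI/Hif1a KO, and of the lower genes 189. The part of expression level in the difference of folds was not tested. The 2 groups did not overlap in 429 of the 438 and 468 of the 487, against 19.3% of all genes tested. The same libraries chose these genes, so the separation describes the calls and is no support for them. The calls rested on few libraries. Leaving out KI 2 lowered the counts to 139 and 222, leaving out KI/Hif1a KO 1 to 142 and 166, and leaving out KI/Hif1a KO 3 to 140 and 133. Without KI 3 they were 268 and 246, and without KI 1 the lower count was 318. No called gene changed direction in any of these fits. Within KI/Hif1a KO, library 1 was the highest of the 4 in 237 of the 438 higher genes and the lowest in 243 of the 487 lower genes, while library 2 was the lowest in 265 and the highest in 270. Library 1 thus lay farthest from KI and library 2 nearest to it in both directions.

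The genes that fell included 3 of glycolysis and 5 others known to respond to low oxygen. Among 22 glycolytic genes, Hk2, Eno2 and Slc16a3 fell, Pfkfb4 rose and 18 did not pass the test, with a median log2 change of -0.33 against 0.00 over all genes. Summed over the list, KI 3 stood apart at 10310 CPM, while KI 1 and KI 2 at 7454 and 6896 CPM lay inside the 6531 to 8853 CPM of KI/Hif1a KO. In KI/Hif2a KO the list median against the same KI libraries was -0.20. Slc16a3, which encodes the lactate exporter MCT4, was at 8.39, 12.1 and 37.8 CPM in KI and at 5.32, 6.34, 5.48 and 5.31 CPM in KI/Hif1a KO. All 4 knockout libraries lay below the lowest KI library, and KI 3 alone held most of the KI signal. The log2 change was -1.79 (SE 0.39, adjusted p = 0.0190), and -0.87 without KI 3, where the call was lost.

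Hk2, the inducible hexokinase that starts glycolysis, was at 476.9, 417.4 and 355.3 CPM in KI and 85.7, 243.1, 117.3 and 196.9 CPM in KI/Hif1a KO. It fell by 1.37 on the log2 scale (SE 0.38, adjusted p = 0.0457), with every knockout library below every KI library, though still far above the 1.01 to 2.47 CPM of Cre(-) kidney. This call was kept in 1 of the 7 fits that left out a library, with the adjusted p reaching 0.131 and the log2 change staying between -1.65 and -1.17. Eno2, a neuronal-type enolase, went from 60.9, 48.7 and 39.4 CPM to 19.5, 27.9, 21.9 and 29.3 CPM (log2 -1.01, SE 0.22, adjusted p = 0.0209, kept in 3 of 7 fits). Pfkfb4, which sets the level of a glycolytic activator, went from 5.98, 6.52 and 6.22 CPM to 10.6, 7.11, 11.1 and 8.55 CPM (log2 0.58, SE 0.15, adjusted p = 0.0337, kept in 2 of 7). Several well-known HIF targets of the list did not pass. Ldha, the enzyme that makes lactate, was at 301.0, 278.3 and 436.3 CPM in KI and 296.8, 280.0, 247.2 and 265.1 CPM in KI/Hif1a KO (log2 -0.31, SE 0.13, adjusted p = 0.177). Slc2a1, the glucose transporter GLUT1, differed by -0.04 (SE 0.22, adjusted p = 0.936), and its highest library was KI 3.

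Among 29 further hypoxia-inducible genes tested, Ankrd37, Bnip3l, P4ha1, Stc2 and Mif fell, Angptl4 rose and 23 did not pass, with a median log2 change of -0.16. KI 3 again held the highest sum, 4842 CPM, against 3032 and 2943 CPM in KI 1 and KI 2 and 2918 to 3698 CPM in KI/Hif1a KO. In KI/Hif2a KO the sum was 2743 to 3229 CPM, and its list median against the same KI libraries was -0.30. A negative median was thus not seen in KI/Hif1a KO alone. Epo was too low to test. P4ha1, a subunit of the enzyme that hydroxylates proline in collagen, was at 85.8, 101.7 and 137.3 CPM in KI and at 59.6, 65.3, 54.4 and 71.5 CPM in KI/Hif1a KO. It fell by 0.79 (SE 0.14, adjusted p = 0.00851) and the call was kept in all 7 fits. Stc2, a secreted glycoprotein, went from 63.0, 71.2 and 60.6 CPM to 30.3, 38.7, 45.7 and 36.9 CPM (log2 -0.78, SE 0.17, adjusted p = 0.0197, kept in 5 of 7). Bnip3l, a receptor for mitophagy, went from 170.3, 165.4 and 241.1 CPM to 146.8, 148.7, 127.2 and 138.7 CPM (log2 -0.45, SE 0.11, adjusted p = 0.0259, kept in 4 of 7). Ankrd37 lay between 2.37 and 6.79 CPM in KI and between 0.70 and 1.73 CPM in KI/Hif1a KO (log2 -1.64, SE 0.43, adjusted p = 0.0394, kept in 2 of 7). Vegfa, the angiogenic growth factor, was at 192.7, 214.5 and 315.2 CPM and at 187.4, 196.2, 169.5 and 176.9 CPM (log2 -0.40, SE 0.12, adjusted p = 0.0763). Of 10 genes of the HIF machinery, Vhl fell (log2 -0.49, SE 0.12, adjusted p = 0.0288) and the other 9 did not pass. Over all genes tested 5.44% were called.

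The promoters of the 3 genes of these lists that fell with the smallest p are shown, because RCGTG is the core that HIF binds. Each line gives the 250 bases before the RefSeq start of the gene, 5′ to 3′ on the gene's strand, from RefSeq GRCm38.p6. P4ha1 lies on the plus strand at chr10:59323046-59323295, Slc16a3 on the plus strand at chr11:120948817-120949066 and Stc2 on the minus strand at chr11:31370062-31370311. Capitals mark ACGTG or GCGTG on either strand.
P4ha1: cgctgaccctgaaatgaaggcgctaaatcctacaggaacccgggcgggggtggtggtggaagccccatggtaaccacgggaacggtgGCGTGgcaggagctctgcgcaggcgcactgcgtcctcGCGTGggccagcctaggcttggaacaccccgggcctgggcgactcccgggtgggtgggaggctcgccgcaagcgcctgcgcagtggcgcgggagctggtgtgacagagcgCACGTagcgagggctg
Slc16a3: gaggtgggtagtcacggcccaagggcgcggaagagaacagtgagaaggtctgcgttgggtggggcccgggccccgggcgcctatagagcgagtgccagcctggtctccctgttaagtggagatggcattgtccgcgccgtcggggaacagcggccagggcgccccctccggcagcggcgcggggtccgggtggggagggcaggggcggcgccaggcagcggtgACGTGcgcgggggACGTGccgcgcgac
Stc2: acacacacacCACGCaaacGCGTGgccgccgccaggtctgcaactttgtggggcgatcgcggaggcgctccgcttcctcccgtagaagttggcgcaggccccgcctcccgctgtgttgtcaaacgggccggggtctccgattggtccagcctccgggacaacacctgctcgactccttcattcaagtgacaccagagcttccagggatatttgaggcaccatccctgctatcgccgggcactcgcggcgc
P4ha1 held 3 such matches, Slc16a3 2 and Stc2 2. By the same rule Angptl4 was the gene that rose. A match is a description of letters and not a binding site. The same letters were found in 57.3% of 15530 promoter windows of genes tested (250 bases before to 50 after the start), and CACGTG, the motif of TFE3 that overlaps ACGTG, in 9.08%. Windows were at hand for 75.3% of the higher and 76.0% of the lower genes, under the 80% needed for a comparison of shares, so that comparison is void.

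Of sterol synthesis and uptake 4 genes fell, and of SREBP control 2, where 2.86% of all genes tested fell. Insig1 and Insig2, which hold the SREBP precursors in the endoplasmic reticulum, fell, while the other 19 of 21 genes of fatty acid synthesis and SREBP control did not pass. Insig1 was at 171.8, 136.5 and 92.8 CPM in KI and at 55.6, 69.6, 52.8 and 70.8 CPM in KI/Hif1a KO (log2 -1.10, SE 0.28, adjusted p = 0.0341, kept in 2 of 7 fits). Srebf1, the transcription factor of fatty acid synthesis, was at 79.7, 104.5 and 93.5 CPM and at 53.4, 64.9, 58.3 and 63.0 CPM. The groups did not overlap, but its change of -0.63 (SE 0.18) missed the threshold with an adjusted p of 0.0531. Its enzymes Fasn and Scd1 overlapped between the groups, with changes of -0.06 (SE 0.33, adjusted p = 0.936) and 0.17 (SE 0.28, adjusted p = 0.767). In the sterol list Sqle and Lss were among the genes that fell, and 17 of 21 did not pass. The call of Lss was kept in 1 of 7 fits. Sqle, an oxygen-using step of cholesterol synthesis, held 122.0, 118.9 and 117.0 CPM in KI against 86.8, 91.6, 83.4 and 87.7 CPM (log2 -0.45, SE 0.11, adjusted p = 0.0287, kept in 1 of 7).

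Gpnmb and 6 other genes of the lysosome and its control fell, where 2.86% of all genes tested fell. Of 32 genes of the lysosome, autophagy and folliculin list, 7 fell, none rose and 25 did not pass, with a median of -0.29. The list sum was 16060 to 23740 CPM in KI/Hif1a KO and 17220 to 27840 CPM in KI/Hif2a KO, below the 31450 to 36980 CPM of KI. Against KI the list median in KI/Hif2a KO was -0.27, and none of its members passed between the knockouts. A lower level was thus not seen in KI/Hif1a KO alone. Gpnmb, a lysosomal glycoprotein and direct TFE3 target, was at 13010, 14210 and 15630 CPM in KI and at 3269, 7175, 4539 and 7452 CPM in KI/Hif1a KO, against 0.99 to 2.14 CPM in Cre(-). The knockout kidneys thus held less than KI and still far more than Cre(-) kidney. Its change was -1.35 (SE 0.34, adjusted p = 0.0318), kept in 2 of 7 fits with a range of -1.52 to -1.16. Atp6v0d1, a subunit of the proton pump, fell from 166.6, 169.0 and 195.0 CPM to 130.6, 138.2, 114.2 and 130.6 CPM (log2 -0.46, SE 0.09, adjusted p = 0.0134, kept in 7 of 7). Mcoln1, Hexa, Fnip2, Rragc and Rragd fell by between 0.35 and 0.54, and were kept in 4, 1, 2, 3 and 2 of 7 fits. Cd68, a lysosomal protein used as a macrophage marker, moved with them, from 1128, 1061 and 1151 CPM to 476.5, 732.4, 510.0 and 625.4 CPM (log2 -0.93, SE 0.19, adjusted p = 0.0166), against 3.24 to 5.76 CPM in Cre(-). In the pigment list Rab27a and Rab38, which move melanosomes and related organelles, fell and 5 of 7 did not pass.

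**Figure D1:**
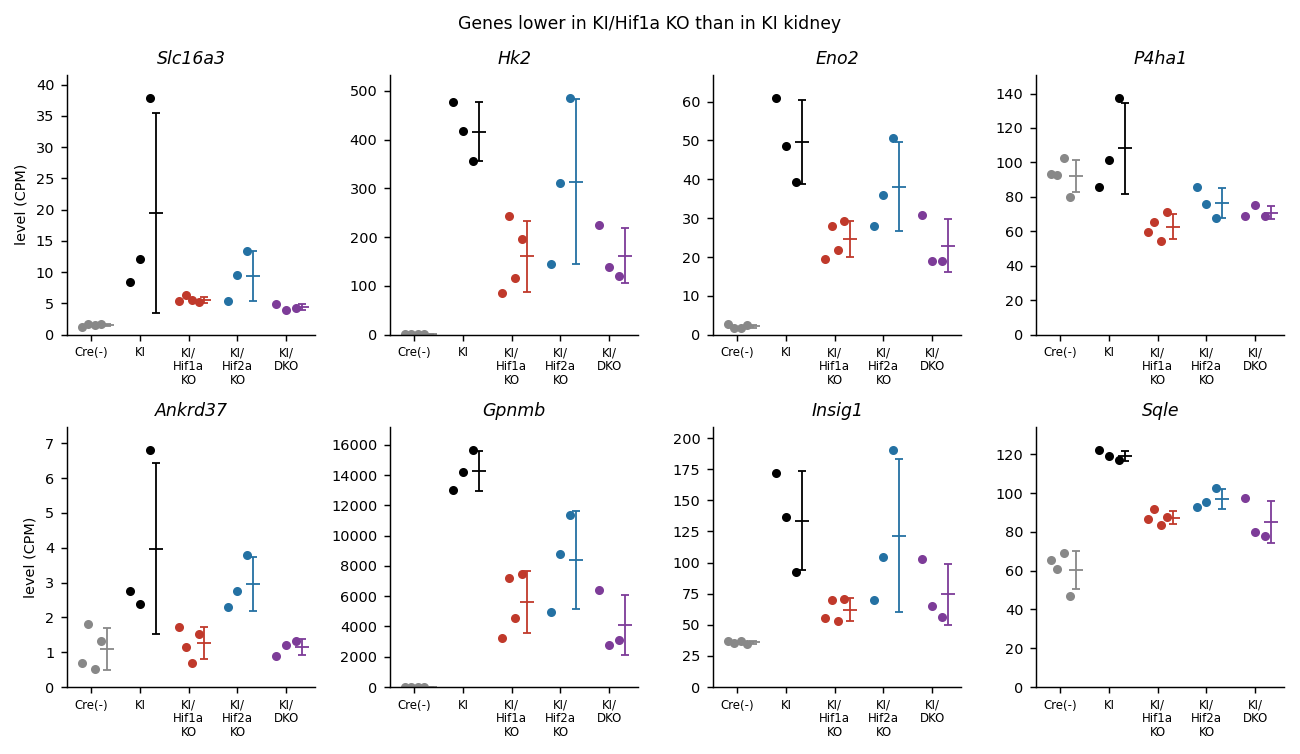
Level in CPM (vertical axis, linear from 0) of 8 genes in each library of the 5 groups, 1 point a library, with the group mean and SD at the right of the points. KI/Hif1a KO libraries lie below all KI libraries in each panel, for example Gpnmb at 3269 to 7452 CPM against 13010 to 15630 CPM.

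Tubule genes were among the largest rises, where 2.57% of all genes tested rose. Of 24 proximal tubule markers tested, 10 rose, none fell and 14 did not pass, with a median log2 change of 1.12. Of 8 thick ascending limb markers, 5 rose and 3 did not pass, with a median of 1.18, and of 7 distal convoluted tubule markers Trpm6 and Slc8a1 rose. None of 8 principal cell, 8 intercalated cell or 7 podocyte markers passed, with medians of 0.58, 0.44 and 0.42. Summed over the lists, proximal tubule markers held 2145, 2300 and 2502 CPM in KI and 6277, 2869, 3606 and 3253 CPM in KI/Hif1a KO, and 30550 to 37310 CPM in Cre(-) kidney. The thick ascending limb sum was 1586, 922.3 and 1112 CPM in KI, 4721, 2245, 3526 and 2894 CPM in KI/Hif1a KO and 7742 to 9877 CPM in Cre(-). Both sums were higher in every knockout library than in any KI library and stayed below Cre(-). The thick ascending limb sum was also above KI in KI/Hif2a KO, at 3896, 2054 and 2181 CPM. This rise was thus not seen in KI/Hif1a KO alone. The proximal tubule sum there, 4959, 2085 and 2339 CPM, overlapped KI. Even so, the proximal tubule list had a median log2 change of 0.75 in KI/Hif2a KO against KI, which uses the same KI libraries. None of its members passed in KI/Hif1a KO against KI/Hif2a KO. The distal convoluted tubule sum was above KI in KI/Hif2a KO as well, at 466.8 to 933.4 against 303.4 to 429.5 CPM. The tubule sums moved in the same libraries as the other changes described here, and the part of tubule content in those changes was not tested.

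Umod, the urinary protein made by the thick ascending limb, was at 1193, 656.7 and 832.9 CPM in KI and at 3434, 1742, 2635 and 2152 CPM in KI/Hif1a KO. It rose by 1.48 (SE 0.27, adjusted p = 0.0100), was kept in 7 of 7 fits, and library 1 came close to the Cre(-) mean of 3514 ± 439 CPM (SD, n = 4). Slc12a1, the sodium-potassium-chloride transporter of that segment, went from 228.7, 134.4 and 123.5 CPM to 740.9, 299.4, 538.4 and 461.5 CPM (log2 1.65, SE 0.36, adjusted p = 0.0195, kept in 3 of 7). Egf was at 19.5, 12.4 and 25.0 CPM in KI and at 241.8, 26.8, 136.3 and 92.4 CPM in KI/Hif1a KO (log2 2.71, SE 0.76, adjusted p = 0.0489, kept in 1 of 7). Library 2 held 26.8 CPM, barely above the highest KI value. In the proximal tubule, Slc22a8, an organic anion transporter, was at 18.2, 6.84 and 15.0 CPM in KI and at 143.1, 28.1, 68.3 and 54.3 CPM in KI/Hif1a KO (log2 2.46, SE 0.66, adjusted p = 0.0425, kept in 1 of 7). Slc13a1, a sulfate transporter, went from 49.4, 27.8 and 61.7 CPM to 214.9, 106.1, 112.8 and 106.1 CPM (log2 1.54, SE 0.31, adjusted p = 0.0136, kept in 7 of 7). Slc34a1, the main phosphate transporter, reached 163.9 to 571.9 CPM from 76.1 to 135.8 CPM (log2 1.54, SE 0.42, adjusted p = 0.0460) and lost its call in every fit but the one without library 2. Lrp2, Aqp1 and Cubn, which take up filtered protein or water, did not pass (log2 0.79, 0.18 and -0.03, adjusted p = 0.207, 0.347 and 0.944).

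Pck1 and Fbp1 of glucose production and Cpt2, Acaa2 and Pdk4 of fatty acid use rose, where 2.57% of all genes tested rose. Of 6 gluconeogenic genes Pck1 and Fbp1 rose and 4 did not pass. Pck1, whose product makes phosphoenolpyruvate from oxaloacetate, was at 35.5, 72.9 and 110.6 CPM in KI and at 989.3, 232.6, 441.4 and 430.9 CPM in KI/Hif1a KO. Its fold of 7.17 (log2 2.84, SE 0.66, adjusted p = 0.0239) was kept in 3 of 7 fits and lay between 2.33 and 3.27 on the log2 scale, while Cre(-) kidney held 2396 to 4987 CPM. G6pc, the last step of glucose release, was at 15.8, 9.10 and 73.2 CPM and at 256.7, 65.7, 58.4 and 90.9 CPM, with overlap (log2 1.85, SE 0.77, adjusted p = 0.171). Of 27 genes of fatty acid oxidation and ketone bodies, Cpt2, Acaa2 and Pdk4 rose, none fell and 24 had a positive change, with a median of 0.35. Pdk4, a kinase that inhibits pyruvate dehydrogenase and so limits the conversion of pyruvate to acetyl-CoA, went from 207.4, 187.6 and 371.5 CPM to 702.3, 744.9, 457.1 and 664.0 CPM (log2 1.33, SE 0.32, adjusted p = 0.0266, kept in 4 of 7). Cpt2, which completes the import of fatty acids, went from 48.2, 46.9 and 47.0 CPM to 102.2, 63.0, 75.8 and 73.2 CPM (log2 0.73, SE 0.18, adjusted p = 0.0297, kept in 2 of 7). In the lipid droplet list Plin5, the perilipin of oxidative tissue, rose from 1.67, 2.64 and 2.28 CPM to 11.0, 5.61, 7.42 and 5.70 CPM (log2 1.75, SE 0.31, adjusted p = 0.00851, kept in 7 of 7). Plin3 and Abhd5 of the same list fell by 0.73 and 0.47 (adjusted p = 0.0151 and 0.0180). Nuclear genes of the respiratory chain, 57 in number, had a median of 0.02 and no call, while mt-Nd2 and mt-Nd4l of 13 mitochondrially encoded genes rose.

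Angptl4, a secreted inhibitor of lipoprotein lipase and a target of both HIF and PPAR factors, rose while the other 5 genes called in its list fell. It was at 17.5, 27.8 and 60.1 CPM in KI and at 248.9, 181.7, 134.2 and 149.1 CPM in KI/Hif1a KO, above the 64.2 to 139.8 CPM of Cre(-) kidney in 3 of 4 libraries. The change was 2.34 (SE 0.53, adjusted p = 0.0227), between 2.02 and 2.98 on leaving out a library, and was kept in 4 of 7 fits.

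Of the NRF2 list 4 genes and of the matrix list 5 also rose. Among all genes tested 2.57% rose and 2.86% fell. Of 16 NRF2 targets Gclc, Gclm, Gsr and Osgin1 rose, none fell and 12 did not pass, though the call of Gclm was kept in 5 of 7 fits, that of Osgin1 in 2 and that of Gsr in 0. Gclc, the catalytic subunit of the first enzyme of glutathione synthesis, was at 399.3, 462.4 and 711.4 CPM in KI and at 973.8, 932.0, 1189 and 1348 CPM in KI/Hif1a KO (log2 1.08, SE 0.20, adjusted p = 0.0111, kept in 7 of 7). Nqo1 and Hmox1, further NRF2 targets, did not pass (log2 0.44 and -0.01, adjusted p = 0.169 and 0.983). Of 30 matrix genes Col1a1, Col1a2, Col3a1, Col6a1 and Tgfbi rose and none fell, and the calls of Col1a1, Col6a1 and Tgfbi were kept in 2, 1 and 5 of 7 fits. The matrix list median was 0.30, and it was also 0.30 in KI/Hif2a KO against the same KI libraries. No matrix gene of the list passed between the knockouts, so this shift was not seen in KI/Hif1a KO alone. Col3a1 went from 119.0, 94.5 and 83.3 CPM to 215.4, 209.6, 229.9 and 168.0 CPM (log2 1.06, SE 0.21, adjusted p = 0.0136, kept in 7 of 7), further from the 24.7 to 46.4 CPM of Cre(-) kidney than KI was. None of 9 fibroblast and smooth muscle markers passed. Among 10 macrophage markers Adgre1, Mrc1 and Cd14 rose, Cd68 fell and 6 did not pass. The calls of Adgre1, Mrc1, Cd14 and Cd68 were kept in 2, 5, 3 and 5 of 7 fits. Mrc1, the mannose receptor, went from 24.3, 37.7 and 33.3 CPM to 51.0, 42.2, 51.5 and 48.4 CPM (log2 0.60, SE 0.13, adjusted p = 0.0177). Of 20 ATF4 targets Psat1, a serine synthesis enzyme, rose (log2 0.98, SE 0.21, adjusted p = 0.0190) while the stress factors Ddit3 and Atf3 fell (log2 -0.89 and -1.19, adjusted p = 0.0106 and 0.0163). The other 17 did not pass, and the ATF4 list median was -0.04.

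Cell division genes were not called. None of 25 cell cycle genes passed, with a median of 0.22, and Mki67, a proliferation marker, was at 47.5, 52.5 and 10.3 CPM in KI and 43.4, 39.7, 57.2 and 51.7 CPM in KI/Hif1a KO. KI 3 was the low library. No member passed in the lists of p53 targets (15), antigen presentation (16), endothelium (9), T and B lymphocytes (12), plasma cells (6), neutrophils (3 tested), adipocytes (10), erythroid cells (5) and sex-linked genes (2 tested). Immunoglobulin variable genes, which are outside the plasma cell list and can share reads between similar copies, made up 17 of the 438 higher genes. The plasma cell sum was 2507, 2341 and 1395 CPM in KI and 3008, 1810, 14850 and 10520 CPM in KI/Hif1a KO, high in libraries 3 and 4, and its part in these calls was not tested. It was above KI in every library of KI/Hif2a KO (5801 to 11280 CPM) and KI/DKO (4822 to 12480 CPM). A high plasma cell sum was thus not seen in KI/Hif1a KO alone. Single calls up and down were found in the interferon list (Ifi44 up, Mx1 down, of 26), the circadian list (Cry1 up, Bhlhe41 down, of 17) and the renin-angiotensin list (Agtr1a up, Agt down, of 6). In the lists of complement (16), the tricarboxylic acid cycle (21) and tubular injury (16), Cfi, Sucla2 and Prom1 rose and none fell. Over all genes tested 5.44% were called, so 1 call in a list of such size lies near that share and is no result about the list. Among 25 genes of insulin, IGF and AMPK signalling Igfbp7 rose and Irs2, Prkag2, Appl2 and Akt2 fell. The immediate early genes Nr4a1 and Egr1 fell, of 15. Agt, the angiotensin precursor, fell from 1063, 1001 and 1127 CPM to 491.3, 718.0, 500.7 and 651.6 CPM (log2 -0.85, SE 0.15, adjusted p = 0.00889, kept in 7 of 7). The sum of the renin-angiotensin list was also below KI in KI/Hif2a KO, at 729.5 to 831.4 against 1169 to 1284 CPM.

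**Figure D2:**
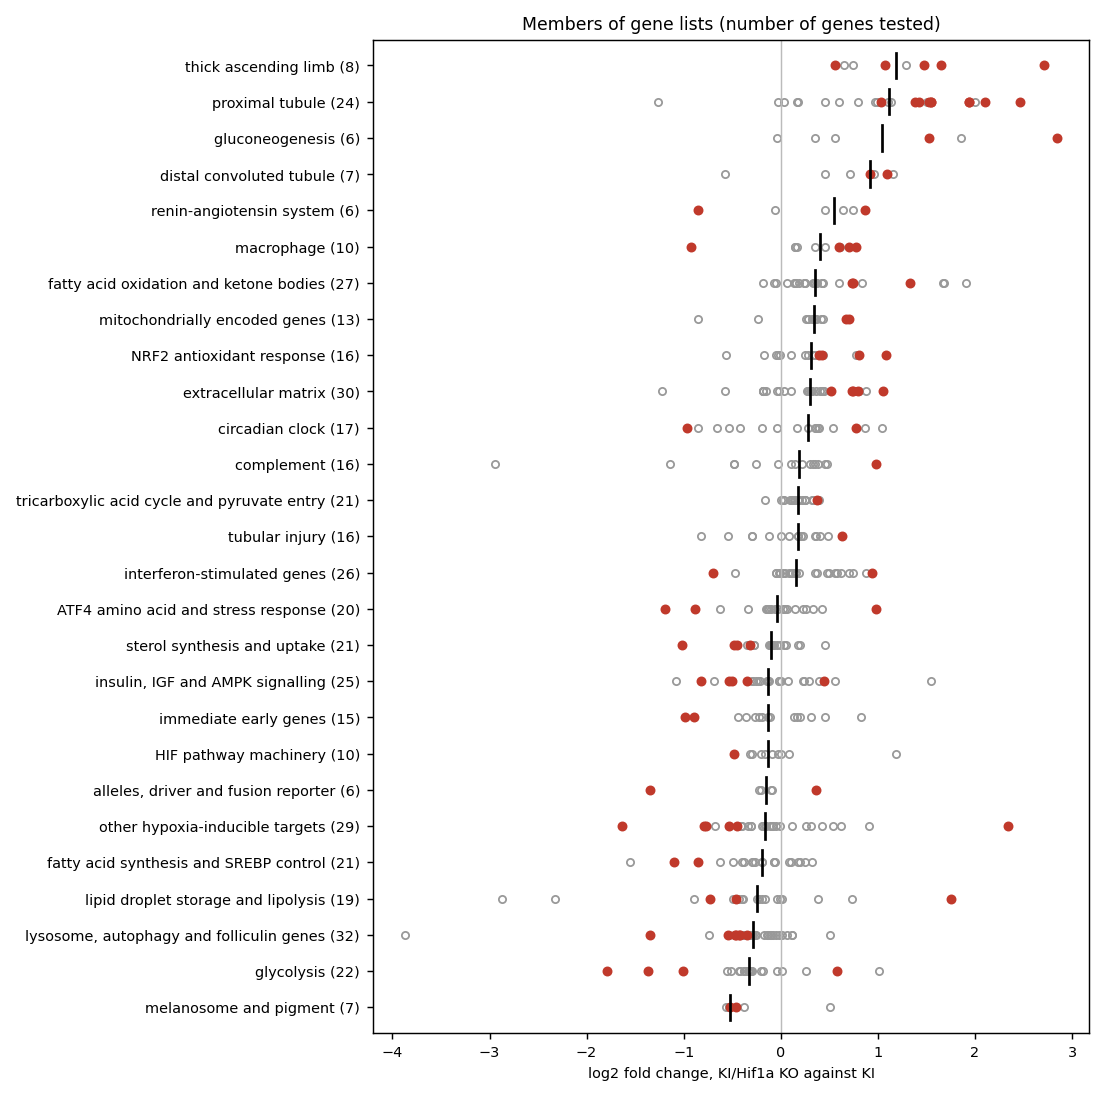
Log2 fold change of each tested member (horizontal axis) for the lists with at least 1 called gene, 1 row a list with its number of tested genes. Red points passed the adjusted p threshold of 0.05, open points did not, and black bars are list medians, from 1.18 for the thick ascending limb to -0.52 for the pigment list.

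The genes with the strongest tests were mostly outside these lists. The genes with the smallest p among well-expressed genes included, of those that rose, Reln, Paqr5, Noct, Polr3e and Col1a2, and of those that fell Mettl7a2, Thrb, Dkk3 and Lrrc28, and each of these was kept in 7 of 7 fits. Reln, a secreted glycoprotein of cell guidance, was at 104.4, 72.5 and 62.6 CPM in KI and at 255.0, 182.6, 246.3 and 242.2 CPM in KI/Hif1a KO (log2 1.54, SE 0.17, adjusted p = 0.00138). Cre(-) kidney held 7.54 to 11.0 CPM, so the knockout lay further from it than KI. Noct, a NADPH phosphatase under clock control, rose from 227.3, 249.2 and 320.4 CPM to 472.8, 405.2, 437.9 and 413.1 CPM (log2 0.70, SE 0.11, adjusted p = 0.00427). Mettl7a2 fell from 383.9, 394.0 and 370.4 CPM to 206.9, 228.2, 194.3 and 233.0 CPM (log2 -0.83, SE 0.10, adjusted p = 0.00147). Thrb, a thyroid hormone receptor, fell from 98.3, 115.2 and 116.9 CPM to 62.7, 69.4, 63.2 and 75.3 CPM (log2 -0.70, SE 0.09, adjusted p = 0.00174).

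The 15 largest rises named by rule held Alb, Tmem207, Ear2, Ccl22, Car14, Slc51a, Cyp4a31, Gldc, Fitm1, Cd226 and Slc30a2 besides genes given above. The first 4 are left without a fold, because at least 2 KI libraries held 3 counts or fewer. Alb had 1, 2 and 3 counts in KI and 49, 4, 21 and 33 in KI/Hif1a KO, and Tmem207 7, 3 and 2 against 70, 16, 55 and 37. Car14, a carbonic anhydrase, was at 1.32, 0.70 and 2.00 CPM in KI and at 18.0, 4.41, 7.07 and 6.91 CPM in KI/Hif1a KO (log2 2.75, SE 0.56, adjusted p = 0.0151). Gldc, which cleaves glycine, went from 9.54, 12.9 and 30.8 CPM to 164.1, 38.2, 83.7 and 79.0 CPM (log2 2.36, SE 0.55, adjusted p = 0.0243). Among the 15 largest falls, Adam33, a metalloprotease, went from 298.9, 172.7 and 206.2 CPM to 34.8, 71.1, 44.7 and 78.7 CPM (log2 -1.98, SE 0.40, adjusted p = 0.0149), with 1.59 to 2.54 CPM in Cre(-). Hpse, which cuts heparan sulfate, went from 26.0, 29.3 and 20.6 CPM to 3.76, 10.6, 8.52 and 11.8 CPM (log2 -1.54, SE 0.34, adjusted p = 0.0198). Besides Slc16a3 and Ankrd37, given above, the rest were Ly6f, Nppa, Art5, Lrrc14b, Myo16, Sez6l, Pspn and Osr2, at -2.58 to -1.53, and the chromosome 14 genes Rnase1, Rnase4 and Ccnb1ip1 described below.

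**Figure D3:**
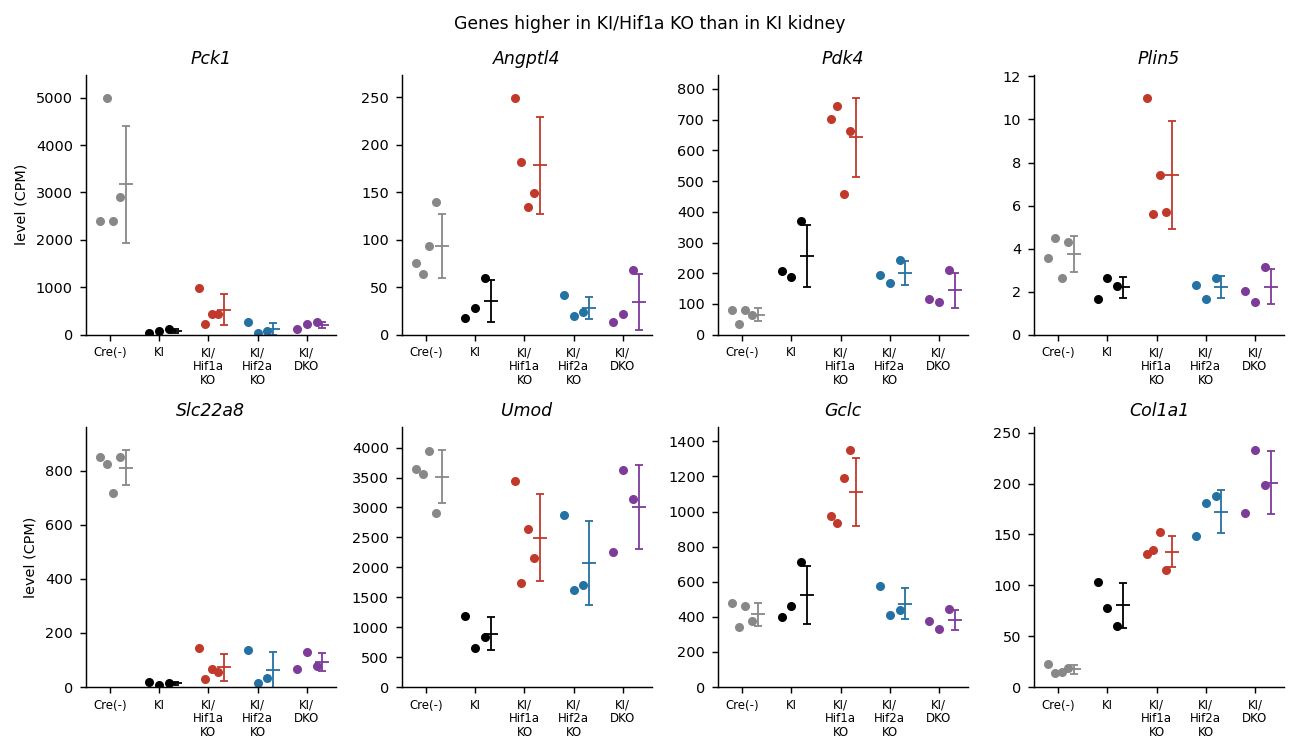
Level in CPM (vertical axis, linear from 0) of 8 genes that rose, 1 point a library, with the group mean and SD at the right. Slc22a8 and Pck1 in KI/Hif1a KO lie between KI and Cre(-), with Pck1 at 232.6 to 989.3 CPM, whereas Pdk4, Gclc and Col1a1 exceed both. Umod in KI/Hif1a KO lies above KI, and its highest library reaches the range of Cre(-).

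KI/Hif1a KO was also set directly against KI/Hif2a KO, to ask which genes respond to the loss of one factor more than the other. Of the genes tested, 56 were higher and 17 lower in KI/Hif1a KO, which is 0.329% and 0.0999%. The 73 calls fell to 1 without KI/Hif2a KO 2, to 9 without KI/Hif2a KO 3 and to 18, 20 and 21 without KI/Hif1a KO 3, 4 and 1, were 48 without KI/Hif1a KO 2, and rose to 193 without KI/Hif2a KO 1. Angptl4 was at 41.7, 20.0 and 23.5 CPM in KI/Hif2a KO, far below its 134.2 to 248.9 CPM in KI/Hif1a KO (log2 2.65, SE 0.54, adjusted p = 0.0443). Pdk4 was at 193.3, 167.9 and 242.1 CPM against 457.1 to 744.9 CPM (log2 1.68, SE 0.32, adjusted p = 0.0360), and Plin5 at 2.33, 1.66 and 2.63 CPM against 5.61 to 11.0 CPM (log2 1.75, SE 0.31, adjusted p = 0.0258). In each of these 3 genes the groups did not overlap. The same libraries gave the calls, so the separation describes them and is no support for them. These 3 were the only genes to pass here in their lists, with 1 of 29 further hypoxia-inducible genes, 1 of 27 of fatty acid oxidation and 1 of 19 of the lipid droplet. Gclc was at 575.9, 410.6 and 440.8 CPM against 932.0 to 1348 CPM (log2 1.22, SE 0.21, adjusted p = 0.0222), and Psat1 differed by 1.17 (SE 0.21, adjusted p = 0.0305). Polr3e, a subunit of RNA polymerase III, Cry1, a clock repressor, and Paqr5 differed by 0.87, 1.22 and 0.43 (adjusted p = 0.0148, 0.0148 and 0.0403). Hif3a, a HIF family member that can act as an inhibitor, was at 10.9, 7.37, 9.02 and 10.1 CPM in KI/Hif1a KO, at 0.96 to 2.23 CPM in KI/Hif2a KO (log2 2.63, SE 0.49, adjusted p = 0.0336) and at 1.15, 4.25 and 6.90 CPM in KI.

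Other genes of this comparison were chosen after their values were seen. The acyl-CoA thioesterases Acot1, Acot2 and Acot12 were higher in KI/Hif1a KO by 1.07, 0.96 and 1.04 (adjusted p = 0.0346, 0.0454 and 0.0437), and Pex11a, which divides peroxisomes, by 0.97 (SE 0.14, adjusted p = 0.0132). The other genes of that family that were tested did not pass, and Acot1 and Acot2 lie 10.1 Mb from Hif1a, whose surroundings are described below. In Cre(-) kidney these 2 genes differed by 0.27 and 0.36 between libraries with and without HIF1af/f. Fkbp5 and Tsc22d3, glucocorticoid-induced genes, were higher by 2.12 and 1.66 (adjusted p = 0.0437 for both). Fkbp5 held 377.5, 258.9, 320.7 and 335.3 CPM in KI/Hif1a KO and 90.3, 78.6 and 54.1 CPM in KI/Hif2a KO, while KI ranged from 62.7 to 235.8 CPM, overlapping KI/Hif2a KO. Mt2, a metallothionein, was higher by 1.43 (SE 0.21, adjusted p = 0.0132). By contrast the glycolytic genes lowered by Hif1a loss did not pass in this direct comparison. Slc16a3, Hk2 and Eno2 were lower in KI/Hif1a KO than in KI/Hif2a KO by 0.74, 0.96 and 0.63 (adjusted p = 0.392, 0.240 and 0.197). In KI/Hif2a KO Hk2 was spread over 146.0, 310.8 and 485.0 CPM. Against KI, which both comparisons share, KI/Hif2a KO differed by -1.05, -0.41 and -0.38 for these 3 genes. Gpnmb differed between the knockouts by -0.58 (adjusted p = 0.443).

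Whether Hif1a loss had the same effect where Hif2a was also absent was asked with KI/DKO against KI/Hif2a KO, 6 libraries of which none enters the means of KI/Hif1a KO or KI. In this comparison 0 genes were higher and 1, Lrmda, was lower by edgeR's test, which is 0.0% and 0.00588% of genes. At an unadjusted p under 0.05 there were 950 genes, and DESeq2's Wald test called 10 higher and 8 lower. The genes called in KI/Hif1a KO mostly lay on the same side of 0 there, by smaller amounts. The 438 higher genes had a median log2 difference of 0.20 in KI/DKO against KI/Hif2a KO and 83.8% of them were positive, against a median of 0.00 and 50.9% over all genes tested. The 487 lower genes had a median of -0.20 and 91.2% were negative. For comparison, their medians in KI/Hif1a KO against KI, where they were chosen, were 0.81 and -0.55. Tubule sums differed in this comparison too, with 2085 to 4959 CPM of proximal tubule markers in KI/Hif2a KO and 3382 to 5407 CPM in KI/DKO, and their part was not tested.

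Single genes differed in how far they followed. Hk2 was at 226.0, 139.8 and 120.1 CPM in KI/DKO and differed from KI/Hif2a KO by -0.95 (SE 0.41), and Slc16a3, Eno2, Ankrd37 and Gpnmb by -1.09, -0.73, -1.37 and -1.03. Pck1, Umod and Slc22a8 were higher by 0.75, 0.54 and 0.57. Pdk4, Plin5, Gclc and Polr3e were not, with differences of -0.47, 0.02, -0.31 and -0.05, and Angptl4 differed by 0.28. None of these passed the threshold. The test of the difference between the 2 effects of Hif1a loss, the interaction term, called 0 genes in edgeR's quasi-likelihood test, with 1013 at an unadjusted p under 0.05 and 31 calls by DESeq2, so a gene-level difference was not shown at this size.

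**Figure D4:**
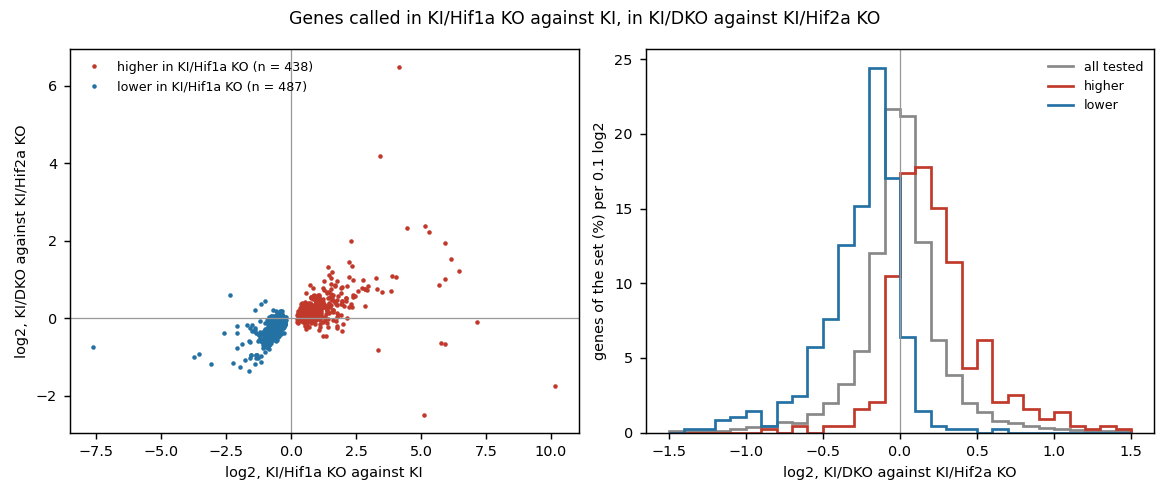
Left, log2 change in KI/Hif1a KO against KI (horizontal) and in KI/DKO against KI/Hif2a KO (vertical) for the genes called in the former, 1 point a gene. Right, share of each gene set by log2 difference in KI/DKO against KI/Hif2a KO, where the medians are 0.20 for the higher set, -0.20 for the lower set and 0.00 for all genes tested.

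The surroundings of Hif1a were examined after the values were seen. Hif1a lies on chromosome 12, and of 77 tested genes within 5 Mb of it 12 were called, 6 higher and 6 lower, which is 15.6% against 5.44% of all genes. Within 10 Mb 14 of 128 were called (10.9%), and on the rest of the chromosome 22 of 560 (3.93%). KI/Hif2a KO, without the Hif1a flox allele, had 1 call against KI within 5 Mb, where 1.39% of all genes were called in that comparison. Dhrs7, a dehydrogenase 1.27 Mb away, was at 37.1, 39.2 and 43.8 CPM and at 20.0, 25.7, 21.4 and 21.6 CPM (log2 -0.85, SE 0.20, adjusted p = 0.0251).

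Dhrs7 also differed among Cre(-) kidneys, where Hif1a is intact. It was at 11.0 and 10.0 CPM in the 2 Cre(-) libraries with HIF1af/f and at 19.5 and 21.9 CPM in the 2 without (log2 -0.98, adjusted p = 0.00405). That comparison, of 2 libraries against 2, called 7 genes or 0.0411% of those tested, and 5 of them were also called in KI/Hif1a KO against KI, each in the same direction. Among these were Dhrs7, Gm4742, Gm3375 and Gm9200. DESeq2 called 267 genes in it, so its count depends on the tool. On chromosome 14, Rnase1, a secreted ribonuclease, was at 12.0, 9.42 and 8.73 CPM in KI and at 0.30, 1.35, 0.75 and 0.94 CPM in KI/Hif1a KO (log2 -3.57, SE 0.58, adjusted p = 0.00659). In Cre(-) it held 0 counts in both libraries with HIF1af/f and 6 and 9 counts in those without. Rnase4 fell by 1.70 (SE 0.30, adjusted p = 0.00870) and was at 14.3 and 11.6 CPM with HIF1af/f and 30.7 and 35.5 CPM without it (adjusted p = 0.0784). Ccnb1ip1 had 10, 13 and 30 counts in KI and 1, 3, 3 and 2 in KI/Hif1a KO, and 2 and 2 against 24 and 27 in Cre(-). KI/Hif2a KO, which carries no Hif1a flox allele, was also low in these 3 genes, with Ccnb1ip1 at 1, 3 and 4 counts. For genes near Hif1a, such as Dhrs7, the deletion of Hif1a and sequence that travels with the flox allele cannot be told apart. The 3 genes on chromosome 14 are not on the chromosome of Hif1a, and the source of their difference was not tested.

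**Figure D5:**
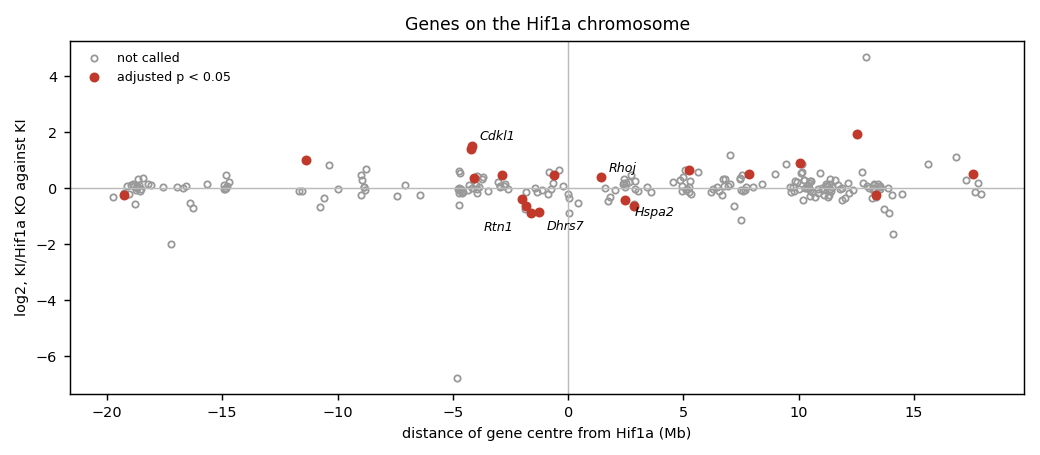
Log2 change in KI/Hif1a KO against KI (vertical axis) by distance of the gene centre from Hif1a in Mb (horizontal axis) for tested genes within 20 Mb, 1 point a gene, red where called. Of the 77 genes within 5 Mb of Hif1a 12 were called, and the highest of them is Cdkl1 (log2 1.52), at -4.16 Mb.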

How the data were processed

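Libraries of kidney polyA RNA, 17 in number (TruSeq stranded mRNA) were read single-end on a NextSeq 500. Trimming with Trim Galore, alignment with STAR to hg38 and quantification with RSEM are stated in the methods. Because the rows are mouse transcripts, positions were taken from GRCm38, which the submitters' processing notes also name. The authors deposited expected counts of each transcript, which are estimated counts that are not normalized. The authors also deposited TPM values, scaled for transcript length and library total.

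Of 119353 transcripts 116770 (97.8%) were matched to GENCODE M21, and counts and TPM were summed to 35971 genes, the counts then rounded. Gene sums hold reads that RSEM divided between similar copies, which makes values of paralogs and pseudogenes uncertain. The quasi-likelihood model of edgeR (version 4.0.16 in R 4.3.3) was fitted once to all 17 libraries in 5 groups, with TMM scaling and a minimum count of 10 in filterByExpr, which kept 17011 genes and left out 18960. The same fit gave all comparisons, so the groups share 1 estimate of the spread. Alternatives were DESeq2 1.42.0, other scaling and filters, limma 3.58.1 on log2(TPM + 1) or log2(TPM + 0.1), a replicate block and leaving out each library. The scripts were tested on simulated data. The labels do not say that replicates are separate litters, and p-values measure the spread between these libraries. A count of 3 was taken as the floor of a library, for counting error only.

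Members, gene lists and tests were chosen with earlier results of these data known. Named were protein-coding genes past the threshold with a mean of at least 1 TPM and no overlap between groups, 15 with the largest rise and 15 with the largest fall, 5 in each direction with the smallest p at 100 CPM or more, and in each list the called members, or the 3 largest changes where fewer passed. Members of lists that are named although they did not pass were chosen after their values were seen, other than Hif1a, Epas1 and Srebf1. Some genes are not reported here.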

Additional observations from a re-analysis of the deposited data

Results flagged for a closer look

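In 11 of 185 quantities examined, 1 of the 4 KI/Hif1a KO libraries lay farther from the other 3 than the 95% critical value of Dixon's test for 4 samples allows, and chance alone flags about 1 group in 20. Library 1 stood apart in 8 of them. It was high in proximal tubule genes, with G6pc at 256.7 CPM, Slc13a1 at 214.9 CPM, Slc17a1 at 161.7 CPM and Slc17a3 at 55.4 CPM, in the mitochondrial genes Sucla2 at 103.3 CPM and Uqcrc2 at 218.3 CPM, in Polr3e at 120.8 CPM and in Hba-a2, a haemoglobin chain, at 39.3 CPM. Library 2 stood apart in Cfd, an adipocyte-secreted complement factor, at 183.3 CPM, in Rnase4 at 49.0 CPM and in Slc16a3 at 6.34 CPM. Without library 1 the call of Polr3e and Slc13a1 was kept, and those of Slc17a1, Slc17a3 and Sucla2 were lost.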

How the results depend on the processing

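The number of calls depended on the model more than their direction did. For KI/Hif1a KO against KI (438 higher, 487 lower), DESeq2's Wald test gave 782 and 883, a fit to these 2 groups alone 112 and 134, limma on log2(TPM + 0.1) 255 and 297, and limma on log2(TPM + 1) without a filter 144 and 237, while limma on log2(TPM + 1) gave 251 higher. Leaving out 1 library gave 139 to 574 higher and 133 to 595 lower genes. For KI/Hif1a KO against KI/Hif2a KO (73 genes) the same alternatives gave 537, 132, 27, 21 and 29, and leaving out 1 library 1 to 193. For KI/DKO against KI/Hif2a KO, DESeq2 gave 10 higher and 8 lower, limma without a filter 1 higher and the 2-group fit 0 lower, and leaving out 1 library gave 0 to 1 higher and 1 to 3 lower. The interaction had 31 calls by DESeq2, 2 by limma without a filter and 0 to 2 on leaving out 1 library. Medians of the called genes in KI/DKO against KI/Hif2a KO kept their sign in every alternative, from 0.13 to 0.29 for the higher and from -0.33 to -0.16 for the lower genes. Without the mitochondrially encoded genes, an alternative chosen after seeing the data, 915 genes were called in place of 925.

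Replicate numbers in the labels did not pair the samples of KI and KI/Hif1a KO, with correlations of same-numbered deviations of 0.04, -0.06 and -0.22. With the replicate block the counts were 237 higher and 242 lower for KI/Hif1a KO against KI and 19 for KI/Hif1a KO against KI/Hif2a KO.

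Of 115 called genes among the 183 named, none changed direction in any alternative and 26 were called in each fit that left out 1 library, but only 13 in every alternative run. Most losses came without KI/Hif1a KO 3 and KI/Hif1a KO 1 (74 each) and KI 2 (69). Signs reversed for 7 genes that were not called. On leaving out 1 library, Hba-a2 ranged from -2.48 to 0.91, Hbb-bs from -2.36 to 1.00, Hbb-bt from -2.55 to 0.94, Pnpla3 from -2.10 to 0.92, Myh11 from -0.48 to 0.24, S100a9 from -0.30 to 0.29 and Kdm5d from -0.077 to 0.20, where the haemoglobin genes turned without KI 3 and Myh11 and Pnpla3 without KI 2. S100a9 was 0.21 with the block, Pnpla3 was 0.16 in limma on log2(TPM + 0.1), and Kdm5d was -0.013 in both limma fits on log2(TPM + 1) and -0.011 on log2(TPM + 0.1). With 3 and 4 libraries a group, an exact permutation test of a single value could not go below a p of 0.0571.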
